A study of Rattus norvegicus with 9 samples.

Results

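Kainate and delta receptors are ionotropic glutamate receptors, and their expression was examined here in Wistar Kyoto rats, an inbred strain that serves as a model for behaviour resembling depression. The tissue was medial prefrontal cortex. The 8 genes described, taken by symbol from the 37991 genes of the count table, were the kainate subunits Grik1, Grik2, Grik3, Grik4 and Grik5, the delta subunit Grid1, and the auxiliary subunits Neto1 and Neto2. All 8 matched a gene and passed the filter on low counts that left 18047 genes. RNA sequencing covered 3 groups of 3 libraries, all collected on day 15. K4 rats received K4, a compound known here by its code name, through an intravenous cannula for 7 days, followed by 7 days of withdrawal. Ketamine rats received ketamine, which blocks NMDA receptors and is used against depression, subcutaneously for 7 days, again with 7 days of withdrawal. Control rats were untreated, so neither route of administration had its own vehicle group. The labels give no dose, sex or age, and they do not say whether each library came from its own animal, so p-values measure only the spread between these libraries.

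Kainate receptors are tetramers. GluK1, GluK2 and GluK3 (encoded by Grik1, Grik2 and Grik3) can form channels by themselves, whereas the high-affinity subunits GluK4 and GluK5 (Grik4 and Grik5) reach the surface as partners of the other 3. They act at presynaptic and postsynaptic sites in cortex, partly through ion flux and partly through metabotropic signalling, and Neto1 and Neto2 slow their gating and alter their trafficking. GluD1 (Grid1) is not known to open to glutamate as the other classes do, and it links to presynaptic neurexins through secreted cerebellins.

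Library totals ranged from 28495399 to 32735785 counts in K4, from 27122207 to 33837450 in Ketamine and from 40863756 to 42731004 in Control. The 8 genes had between 294 and 7216 counts in each library. Mitochondrially encoded protein genes took 10.4% to 11.4% of counts in K4, 10.6% to 11.8% in Ketamine and 11.6% to 19.0% in Control, with the highest share in Control replicate 2. Long transcripts had relatively fewer counts in the drug groups. Over 10 length classes the median log2 fold change against Control went down with length, with 0.13 for the shortest and −0.15 for the longest class in K4, and 0.21 and −0.23 in Ketamine. It was 0.06 in K4 and 0.10 in Ketamine for the class of Neto2, within 0.01 of 0 for that of Grik2, −0.03 and −0.04 for that of Grik1, Grik3, Grid1 and Neto1, −0.06 and −0.07 for that of Grik5, and −0.08 and −0.13 for that of Grik4. Neuronal markers (Rbfox3, Snap25, Syt1 and Map2) summed to 2786 to 2982 TPM in K4, 2844 to 2920 in Ketamine and 2100 to 3028 in Control. Of 4 choroid plexus markers Ttr, Folr1 and Kl averaged under 1 TPM over the 9 libraries. With Aqp1, the list summed to at most 3.89 TPM in K4, 3.11 in Ketamine and 2.05 in Control.

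Levels were first compared between genes per length, as deposited TPM, an abundance scaled for transcript length and depth. Grik5 stood far above the other subunits, with 93.7 ± 3.71 TPM in K4, 86.5 ± 5.33 in Ketamine and 87.5 ± 7.79 in Control (SD, n = 3 each). Neto1, an auxiliary subunit of kainate receptors at mossy fibre synapses of mouse hippocampus, followed with 45.2 ± 3.87 TPM in K4, 40.9 ± 3.14 in Ketamine and 40.8 ± 7.68 in Control. Neto2 had 30.1 ± 2.05 TPM in K4, 27.9 ± 1.95 in Ketamine and 30.9 ± 3.12 in Control. Next came Grik2 with 24.8 ± 1.83 TPM in K4, 24.96 ± 2.13 in Ketamine and 27.95 ± 4.95 in Control. Grid1 had 23.2 ± 0.70 TPM in K4, 20.1 ± 0.68 in Ketamine and 19.9 ± 2.64 in Control. Grik1 was the lowest of the 8 in every group, at 7.67 ± 0.72, 6.50 ± 0.73 and 7.33 ± 0.55 TPM in K4, Ketamine and Control.

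The order of the 8 genes was the same in the 3 groups except for Grik3 and Grik4. In K4 Grik3 (20.4 ± 1.23 TPM) stood above Grik4 (16.0 ± 2.09 TPM), and the libraries of these neighbours did not overlap. In Ketamine Grik3 (12.2 ± 1.72 TPM) stood below Grik4 (15.6 ± 0.53 TPM), again without overlap. In Control Grik3 (15.9 ± 5.03 TPM) and Grik4 (13.8 ± 2.18 TPM) overlapped. The other neighbours whose libraries overlapped were Grik2 and Grid1 in K4, Neto2 and Grik2 in Ketamine, and Neto1 with Neto2, Neto2 with Grik2 and Grid1 with Grik3 in Control.

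**Figure D1:**
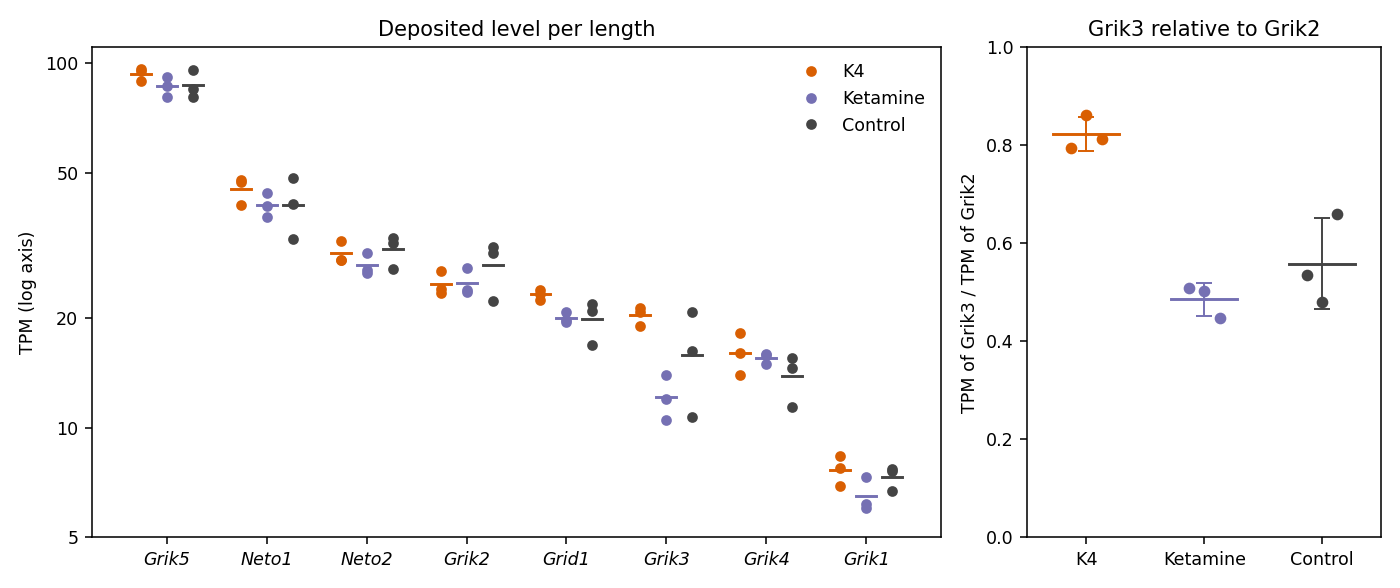
Left, deposited level of each gene in TPM (log axis) in the 3 libraries of each group, with a bar at the group mean. Right, TPM of Grik3 divided by TPM of Grik2 in each library, with the mean and SD: the 3 K4 libraries lie between 0.795 and 0.862, above all Ketamine and Control libraries.

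Together the 5 kainate subunits summed to 163 ± 7.49 TPM in K4, 146 ± 7.10 in Ketamine and 152 ± 19.7 in Control. Grik5 made up 57.7% ± 1.87 of that sum in K4, 59.4% ± 1.78 in Ketamine and 57.6% ± 3.22 in Control. The subunits that need a partner, Grik4 and Grik5, exceeded Grik1 to Grik3 by a TPM ratio of 2.08 ± 0.09 in K4, 2.35 ± 0.20 in Ketamine and 2.02 ± 0.27 in Control, and these ranges overlapped between groups. Grik3 relative to Grik2, a ratio chosen after the values were seen, was 0.795, 0.862 and 0.812 in K4 replicates 1 to 3, 0.509, 0.502 and 0.447 in Ketamine, and 0.536, 0.480 and 0.660 in Control. This ratio was higher in every K4 library than in any other library, whereas Ketamine and Control overlapped. The ratio of Neto1 to Neto2 was 1.51 ± 0.22 in K4, 1.47 ± 0.07 in Ketamine and 1.32 ± 0.13 in Control, with overlap.

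Between groups, genes were compared on counts with edgeR's quasi-likelihood test over all 18047 genes, and levels are given as CPM, counts scaled to the TMM-normalised library size. A gene counts as called where its p, adjusted by Benjamini-Hochberg, was below 0.05. Fold changes below are log2 values with the first group named over the second. In bulk tissue, fewer cells of a type and less RNA per cell cannot be told apart.

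K4 against Control addresses what differed once K4 had been given and then withdrawn. Grik2, the most widely studied kainate subunit, was lower in K4. It was the only member called, 1 of 8, in a comparison where 6.07% of all genes were called, 2.27% higher and 3.8% lower. Over all genes 409 were higher and 686 lower, but 527 and 563 with upper quartile scaling, and 943 and 75 when deposited TPM values were tested with limma. The median log2 fold change of the 8 genes was −0.05, beside 0.00 over all genes tested.

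Grik2 (gene ID 54257) had 38.5, 36.6 and 33.4 CPM in K4 replicates 1 to 3, against 48.7, 41.9 and 46.6 CPM in Control. Every K4 library lay below every Control library. The same held for Grik1, and Grik4 was separated toward higher values. That made 3 of 8 genes without overlap, where 27.5% of all genes had none, 13.3% with higher and 14.2% with lower values. The log2 fold change was −0.34 (SE 0.084, 95% interval −0.52 to −0.16, edgeR adjusted p = 0.034), a fall by 20.8%. With 1 library left out at a time, the call was lost in 7 of 9 fits, namely without Control replicate 1 or 3, any K4 replicate, or Ketamine replicate 2 or 3, with edgeR adjusted p up to 0.162. A fit on only the 6 libraries compared (edgeR adjusted p = 0.0599), an offset for transcript length (−0.32, edgeR adjusted p = 0.062) and limma on TPM (−0.16, adjusted p = 0.435) also ended it, and adjusted p over the other settings ranged from 0.00778 to 0.571.

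The other members did not pass the threshold in K4. Grik1, a subunit of interneurons in rodent forebrain, had 13.9, 11.8 and 12.7 CPM in K4 and 14.4, 16.7 and 15.1 CPM in Control. These libraries did not overlap either, but the log2 fold change of −0.27 (95% interval −0.49 to −0.04) had edgeR adjusted p = 0.147, and on the TPM scale its sign turned (0.06). The median of all genes on that scale was 0.16, and relative to it Grik1 was at −0.10. Grik3, which forms receptors of low glutamate affinity, had 36.3, 37.0 and 32.7 CPM in K4 and 30.7, 23.7 and 36.4 CPM in Control, where replicate 2 was low. Its log2 fold change was 0.22 (95% interval −0.08 to 0.53, edgeR adjusted p = 0.368). The low Grik3 library, Control replicate 2, was also the one in which 19.0% of counts were mitochondrial. Grik2, Grik4, Grid1 and Neto1 also had their lowest Control CPM there, but Grik1 and Grik5 their highest. Whether the mitochondrial share bears on these values was not tested. The Grik3 value was 0.07 without that library and 0.40 without Control replicate 3 (edgeR adjusted p = 0.746 and 0.077), and 0.38 on the TPM scale (limma adjusted p = 0.166). Relative to the median of all genes on the TPM scale, Grik3 was at 0.23.

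Among the partner subunits, Grik4 had 38.5, 37.2 and 36.4 CPM in K4 and 35.3, 34.1 and 36.2 CPM in Control, a log2 fold change of 0.09 (95% interval −0.04 to 0.22, edgeR adjusted p = 0.423) although the libraries did not overlap. Its transcript is the longest of the 8 (5.39 kb), and its value was 0.17 with the length offset and 0.20 on the TPM scale (adjusted p = 0.15 by edgeR and 0.301 by limma). On the TPM scale the median of all genes was itself 0.16, and relative to it Grik4 was at 0.05. Grik5 had 171, 168 and 168 CPM in K4 and 170, 188 and 176 CPM in Control, a log2 fold change of −0.08 (95% interval −0.20 to 0.05) that was −0.03 with the length offset, −0.04 without Control replicate 2 and positive (0.10) on the TPM scale. Relative to the median of all genes on the TPM scale, Grik5 was at −0.06. Grid1 had a log2 fold change of 0.06 (95% interval −0.09 to 0.20) and Neto1 one of −0.01 (95% interval −0.17 to 0.14). The Neto1 value was positive with upper quartile scaling (0.01) and on the TPM scale (0.16), where the median of all genes was also 0.16. Neto2 had 21.0, 24.9 and 20.9 CPM in K4 and 26.3, 25.9 and 24.8 CPM in Control, with a log2 fold change of −0.20 (95% interval −0.40 to −0.01, edgeR adjusted p = 0.186). Its K4 replicate 2 lay within the Control range, and the other K4 libraries below it.

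**Figure D2:**
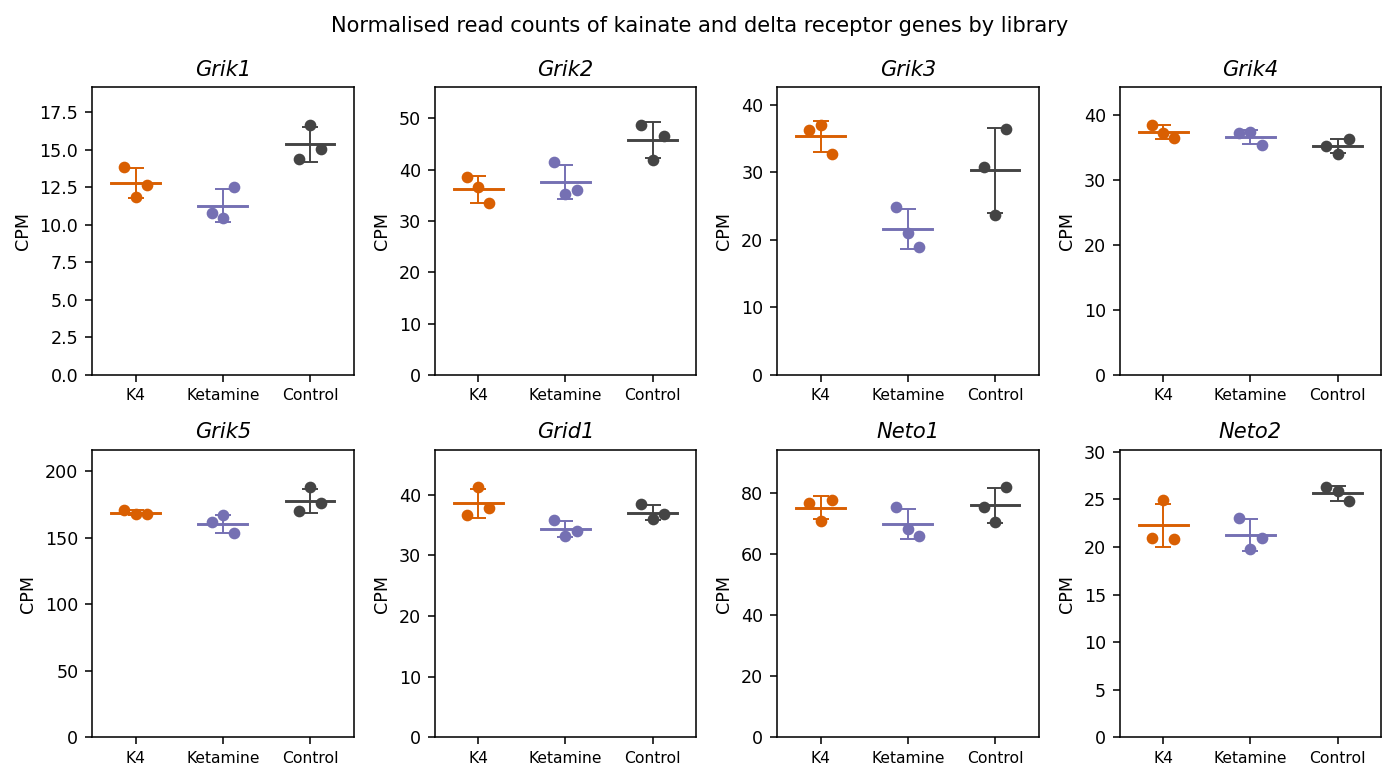
CPM (TMM-normalised) of each gene in every library, with the group mean (bar) and SD. Grik1 and Grik2 lie lower in all drug-treated libraries than in all Control libraries, and Grik3 is higher in all K4 libraries (32.7 to 37.0 CPM) than in all Ketamine libraries (19.0 to 24.9 CPM).

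For Grik2, the subunit called lower in each drug group, and Grik3, the subunit furthest apart between the drug groups, the 250 bases before the annotated start are printed from RefSeq (build GRCr8, a later assembly than the rn6 build named for the deposited files). Capitals mark the GC box GGGCGG on either strand. The Grik2 window (chr20:54415284-54415533, minus strand) was 49.6% G and C with 5 CpG dinucleotides, near the medians of 51.2% and 5 over 33469 such windows. The Grik3 window (chr5:143052192-143052441, plus strand) was 81.6% G and C with 41 CpG dinucleotides.
Grik2: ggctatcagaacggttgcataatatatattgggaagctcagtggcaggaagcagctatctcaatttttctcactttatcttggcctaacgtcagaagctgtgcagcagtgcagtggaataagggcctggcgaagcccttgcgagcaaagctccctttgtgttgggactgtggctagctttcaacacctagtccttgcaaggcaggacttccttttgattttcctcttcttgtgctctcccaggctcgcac
Grik3: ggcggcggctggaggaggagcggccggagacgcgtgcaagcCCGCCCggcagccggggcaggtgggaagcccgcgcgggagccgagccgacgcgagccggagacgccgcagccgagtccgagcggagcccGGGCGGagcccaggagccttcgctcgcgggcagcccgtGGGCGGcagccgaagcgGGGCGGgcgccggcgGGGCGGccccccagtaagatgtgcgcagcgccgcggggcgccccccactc
The Grik3 window held 5 GC boxes and the Grik2 window none, while 30.5% of all windows held at least 1. Windows were found for 7 of the 8 genes, and 3 of them (Grik3, Grik5 and Neto2) held a GC box. None of the 7 held the TATA box TATAAA (12.9% of all windows), the E-box CACGTG (5.59%), the cAMP response element TGACGTCA (1.59%) or the EGR site GCGGGGGCG (2.45%), each searched on both strands. The EGR site can overlap a GC box in part. These are letter matches and say nothing of binding.

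Ketamine against Control puts this question for ketamine. Grik1, Grik2 and Grik3, the subunits that can form channels by themselves, were called lower in Ketamine, and Grik4, Grik5, Grid1, Neto1 and Neto2 were not called. This made 3 of 8 called, all lower, in a comparison where 16.7% of all genes were called, 6.95% higher and 9.75% lower. The division rests on the threshold, since Neto2 was at −0.27 (edgeR adjusted p = 0.0539) and Grik2 at −0.28 (edgeR adjusted p = 0.0353). With the length offset Grik1 and Neto2 were called, and Grik2 and Grik3 were not. Over all genes 1254 were higher and 1759 lower, but 1587 and 1549 with upper quartile scaling, and 1419 and 421 when TPM was tested with limma. The median log2 fold change of the 8 genes was −0.21, beside 0.00 over all genes tested.

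Grik1 (gene ID 29559) had 10.8, 10.5 and 12.5 CPM in Ketamine replicates 1 to 3, against 14.4, 16.7 and 15.1 CPM in Control, without overlap between the groups. Its log2 fold change was −0.45 (SE 0.106, 95% interval −0.68 to −0.22, edgeR adjusted p = 0.0127), a fall by 26.6%. The call held with the length offset (−0.39, edgeR adjusted p = 0.0404). With 1 library left out at a time it held in 8 of 9 fits, but not without Ketamine replicate 2 (−0.40, edgeR adjusted p = 0.0674). It was lost in limma on TPM (−0.15, adjusted p = 0.42), and adjusted p over the other settings ranged from 0.00268 to 0.488.

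Grik2 had 41.5, 35.3 and 36.1 CPM in Ketamine against 48.7, 41.9 and 46.6 CPM in Control, and the highest Ketamine library lay just below the lowest Control library. Its log2 fold change was −0.28 (SE 0.083, 95% interval −0.46 to −0.10, edgeR adjusted p = 0.0353), a fall by 17.7%. Without Control replicate 1 or 3, or Ketamine replicate 2 or 3, it was no longer called (edgeR adjusted p up to 0.162), nor in a fit on the 6 libraries compared (edgeR adjusted p = 0.0543). The length offset (−0.26, edgeR adjusted p = 0.0801) and limma on TPM (−0.15, adjusted p = 0.461) ended the call too, and adjusted p over the other settings ranged from 0.0177 to 0.597. Its lower values in K4 and in Ketamine rest on the same 3 Control libraries.

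Grik3 (gene ID 298521) had 24.9, 20.9 and 19.0 CPM in Ketamine against 30.7, 23.7 and 36.4 CPM in Control. Ketamine replicate 1 lay above Control replicate 2, so the groups overlapped. The log2 fold change was −0.49 (SE 0.142, 95% interval −0.80 to −0.18, edgeR adjusted p = 0.0365), a fall by 28.7%. With 1 library left out at a time it stayed called in 4 of 9 fits and was lost without Control replicate 1 or 3, K4 replicate 1, or Ketamine replicate 2 or 3 (edgeR adjusted p up to 0.136). It was −0.64 without Control replicate 2 and −0.32 without Control replicate 3. The length offset (−0.43, edgeR adjusted p = 0.0938), a fit with no filter on low counts (edgeR adjusted p = 0.0575), a fit on the 6 libraries compared (edgeR adjusted p = 0.0617) and limma on TPM (−0.32, adjusted p = 0.237) also ended the call, and adjusted p over the other settings ranged from 0.00678 to 0.428.

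**Figure D3:**
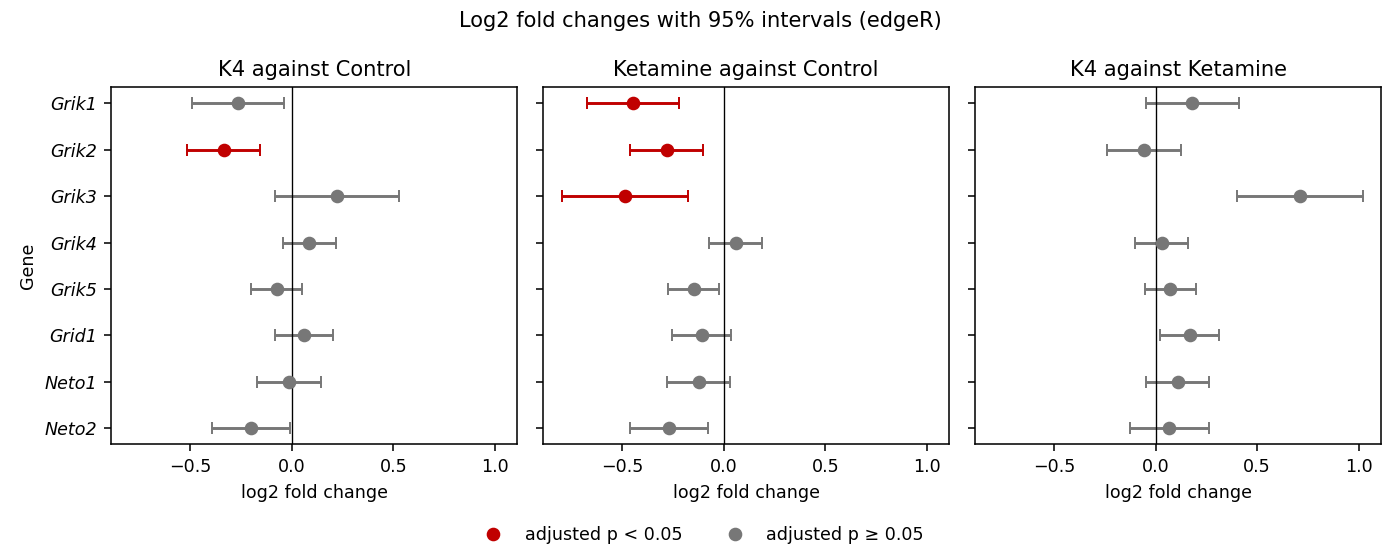
Log2 fold change of each gene in the 3 comparisons with its 95% interval, in red where the edgeR adjusted p was below 0.05. Grik2 was called in K4 against Control, Grik1, Grik2 and Grik3 in Ketamine against Control, and no gene in K4 against Ketamine.

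Neto2 came closest to the threshold among the rest. It had 23.1, 19.8 and 20.9 CPM in Ketamine and 26.3, 25.9 and 24.8 CPM in Control, without overlap, with a log2 fold change of −0.27 (95% interval −0.46 to −0.08, edgeR adjusted p = 0.0539). It was called lower with DESeq2 (−0.27, adjusted p = 0.0399), with the length offset (−0.36, edgeR adjusted p = 0.0288), without K4 replicate 2 (edgeR adjusted p = 0.0373) and without Ketamine replicate 1 (−0.33, edgeR adjusted p = 0.0406), and was −0.14 on the TPM scale (limma adjusted p = 0.408). Its transcript is the shortest of the 8 (1.76 kb implied by the counts and FPKM). Grik5 had 161, 167 and 153 CPM in Ketamine and 170, 188 and 176 CPM in Control, again without overlap, with a log2 fold change of −0.15 (95% interval −0.27 to −0.02, edgeR adjusted p = 0.0977). On the TPM scale it was −0.01 (limma adjusted p = 0.94), and the length offset gave −0.08 (edgeR adjusted p = 0.441). Grid1 at −0.11 (95% interval −0.25 to 0.03) and Neto1 at −0.12 (95% interval −0.28 to 0.03) were positive on the TPM scale (0.02 each). The median of all genes on that scale was 0.12, and relative to it both were at −0.10. Grik4 was at 0.06 (95% interval −0.07 to 0.19), at 0.17 on the TPM scale (limma adjusted p = 0.387, and 0.05 relative to that median) and at 0.18 under the length offset (edgeR adjusted p = 0.0858). Leaving out 1 library gave 0.04 (without Control replicate 2) to 0.10 (without Control replicate 3). Of the 8 genes, 5 had no overlap between Ketamine and Control, all toward lower values. Over all genes 35% had none, 16.9% with higher and 18.1% with lower values.

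K4 against Ketamine asks whether the drug groups differed from each other, with the route of administration differing as well. Grik3 had the largest difference of the 8 genes. It had 36.3, 37.0 and 32.7 CPM in K4 against 24.9, 20.9 and 19.0 CPM in Ketamine, so that the lowest K4 library lay well above the highest Ketamine library. The log2 fold change was 0.71 (SE 0.143, 95% interval 0.40 to 1.02), a 1.64-fold level, with unadjusted p = 0.000355 and edgeR adjusted p = 0.205, so it was not called. In this comparison 0% of 18047 genes were called by edgeR and 1648 had an unadjusted p below 0.05, while DESeq2 called 70. DESeq2 called Grik3 among them (0.71, adjusted p = 0.00135), as did edgeR on the 6 libraries compared (0.71, adjusted p = 0.00892) and without Control replicate 2 (0.71, edgeR adjusted p = 0.0282). With 1 library left out at a time the value stayed between 0.63 and 0.83, and on the TPM scale it was 0.71. Adjusted p ranged from 0.0282 to 0.8 in those fits and from 0.00135 to 0.622 under the other settings.

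The other 7 genes differed less between the drug groups. Grid1 had 36.7, 41.2 and 37.9 CPM in K4 and 35.8, 33.2 and 34.0 CPM in Ketamine, without overlap, with a log2 fold change of 0.17 (95% interval 0.02 to 0.31, edgeR adjusted p = 0.491). Grik5 did not overlap either, with a log2 fold change of 0.07 (95% interval −0.05 to 0.20). These 2 and Grik3 made 3 of 8 genes without overlap, all higher in K4. Over all genes 17.8% had no overlap, 9.49% with higher and 8.29% with lower values. Grik1 was at 0.18 (95% interval −0.05 to 0.41), Grik2 at −0.06 (95% interval −0.24 to 0.13), Grik4 at 0.03 (95% interval −0.10 to 0.16), Neto1 at 0.11 (95% interval −0.05 to 0.27) and Neto2 at 0.07 (95% interval −0.13 to 0.26). These intervals leave room for differences of up to 0.41 on the log2 scale in Grik1 and 0.24 in Grik2.

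**Figure D4:**
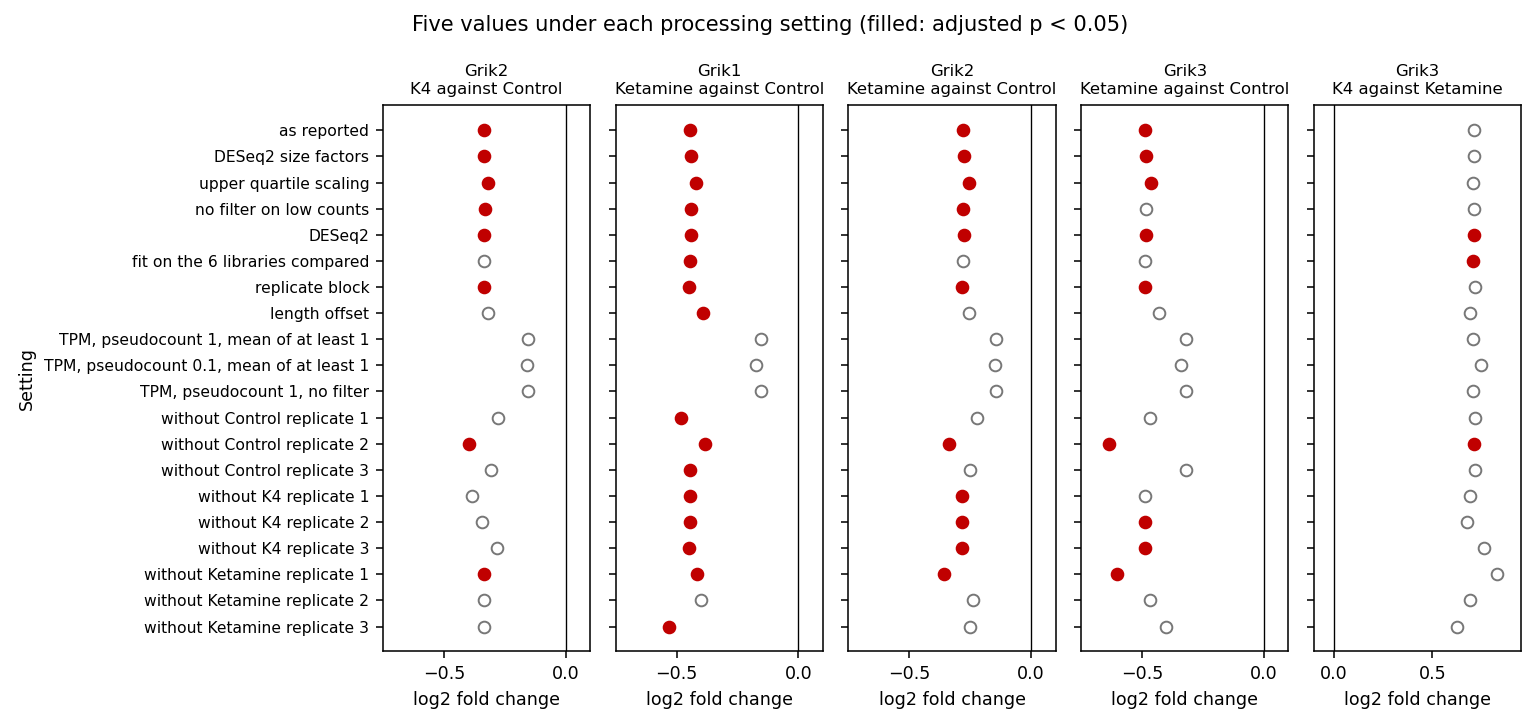
Log2 fold changes of the 4 called values and of Grik3 in K4 against Ketamine, as reported and under each other setting, filled where the adjusted p was below 0.05. The 4 called values stay negative throughout, at −0.15 to −0.34 on the TPM scale. Grik3 in K4 against Ketamine stays between 0.63 and 0.83.

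Several markers of other cell types were lower in Ketamine, as were Grik1, Grik2 and Grik3, and their part in these results was not tested. The astrocyte, oligodendrocyte precursor, and endothelial and mural lists had median log2 fold changes of −0.52, −0.62 and −0.67 in Ketamine. In K4, where Grik3 was at 0.22, these medians were −0.41, −0.45 and −0.38. Marker sums are given in deposited TPM, where the median log2 fold change of all genes against Control was 0.16 in K4 and 0.12 in Ketamine. A higher sum in a drug group is therefore not by itself a rise of those markers. Over all genes 6.95% were called higher and 9.75% lower in Ketamine, and 2.27% higher and 3.8% lower in K4. Marker calls were not examined under the other settings, the length offset among them. Of 8 astrocyte markers 6 were called lower in Ketamine and 2 in K4. The list's summed level was 2435 to 2630 TPM in K4, 2199 to 2278 in Ketamine and 2739 to 3330 in Control. Of 6 oligodendrocyte precursor markers 4 were lower in Ketamine (Sox6, Vcan, Pdgfra and Cspg4) and 2 in K4, at sums of 114 to 136 TPM in K4, 93.8 to 110 in Ketamine and 112 to 141 in Control. Of 6 endothelial and mural markers 3 were lower in each drug group, at 196 to 232 TPM in K4, 142 to 174 in Ketamine and 231 to 273 in Control. Of 6 microglial markers 3 were lower in Ketamine and 1 in K4, at 296 to 303 TPM in K4, 265 to 287 in Ketamine and 275 to 305 in Control. None of 6 oligodendrocyte markers was called, at 1913 to 2448 TPM in K4, 1341 to 1617 in Ketamine and 1280 to 1862 in Control.

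Of 8 interneuron markers Gad2 was lower (−0.63) and Pvalb (0.36) and Cck (0.56) higher in Ketamine, with none called in K4. The list summed to 1278 to 1349 TPM in K4, 1339 to 1537 in Ketamine and 820 to 1222 in Control. On counts its median log2 fold change against Control was 0.14 in K4 and 0.12 in Ketamine. Of 5 excitatory markers Tbr1 was lower in Ketamine (−0.27, edgeR adjusted p = 0.0387) and none was called in K4, at 1214 to 1244 TPM in K4, 1118 to 1242 in Ketamine and 751 to 1224 in Control. Of 4 neuronal markers Map2 was lower in K4 (−0.51) and Ketamine (−0.62). Of 6 striatal markers Ppp1r1b was higher in K4 (0.45) and Ketamine (0.31) and Rgs9 higher in K4 (0.84). This list summed to 138 to 150 TPM in K4, 127 to 139 in Ketamine and 103 to 123 in Control. On counts the median log2 fold change of the striatal list was 0.07 in K4 and −0.07 in Ketamine.

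Across the 9 libraries, the 3 genes most like each called member in log2 CPM were found among 15475 others by Pearson's r, as a description of libraries that share their group means and their length trend. For Grik3 they were Tbr1, a transcription factor of deep-layer excitatory neurons (r = 0.978, Spearman's rho = 0.95), Lrrc55, an auxiliary subunit of BK potassium channels (r = 0.963, rho = 0.917), and Deptor, an mTOR inhibitor (r = 0.957, rho = 0.967). Tbr1 had a log2 fold change of 0.41 (SE 0.082, edgeR adjusted p = 0.17) in K4 against Ketamine and Lrrc55 one of 0.42 (edgeR adjusted p = 0.29). For Grik2 they were Ascc3, a helicase subunit (r = 0.978, rho = 0.983), Clip1, a microtubule plus-end protein (r = 0.965, rho = 0.933), and Kitlg, the ligand of the receptor Kit (r = 0.964, rho = 0.967). Ascc3 is the next protein-coding gene beside Grik2 in RefSeq, and its log2 fold changes of −0.21 in K4 and −0.19 in Ketamine against Control were not called (edgeR adjusted p = 0.106 and 0.0854). For Grik1 they were Sh3rf3 (r = 0.971, rho = 0.95), LOC100911860 (r = 0.96, rho = 0.983) and Mmrn2, an endothelial matrix protein (r = 0.953, rho = 0.95).

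Among the members themselves, Grik3 varied most with Grid1 (r = 0.81, rho = 0.817 over 9 libraries) and Neto1 (r = 0.768, rho = 0.733), and Grik2 with Neto2 (r = 0.766, rho = 0.85). After the group means were removed, Grik3 and Grid1 had r = 0.421, Grik3 and Neto1 r = 0.761, and Grik2 and Neto2 r = 0.44. Grik1 varied most with Grik5 (r = 0.715, rho = 0.833, and r = 0.0548 with the group means removed) and against Grik4 (r = −0.596, rho = −0.65, and r = −0.397). With the group means removed the highest values were those of Grid1 with Neto2 (r = 0.895) and Grik3 with Grik4 (r = 0.808).

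Other genes of the receptors' surroundings were taken from lists by role. Of 12 genes for scaffolds, transport and modification of kainate receptors, 2 were higher and 1 lower in K4, and 1 was higher and 4 lower in Ketamine. Their medians were −0.03 in each, and over all genes 6.07% were called in K4 and 16.7% in Ketamine. Values of the listed genes under the other settings were not examined. On the log2 scale Cask, a scaffold that binds kainate receptors and neurexins, fell by 0.51 in K4 (edgeR adjusted p = 0.00332) and by 0.62 in Ketamine (edgeR adjusted p = 0.000373). Pick1, a PDZ protein that binds GluK2, rose by 0.33 in K4 (edgeR adjusted p = 0.0299) and by 0.39 in Ketamine (edgeR adjusted p = 0.00567). Kif17, a kinesin that carries glutamate receptor subunits in dendrites, rose by 0.36 in K4 (edgeR adjusted p = 0.0385). In Ketamine Dlg1, a scaffold, fell by 0.21, Camk2a, a synaptic kinase, by 0.52 and Prkca, a protein kinase C, by 0.22 (edgeR adjusted p = 0.0359, 0.0202 and 0.0233). None of the 12 was called between K4 and Ketamine, where Kif17 had the smallest p (0.18, edgeR adjusted p = 0.602).

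None of the 3 RNA editing genes was called, Adarb2 having −0.28 in K4 and −0.30 in Ketamine (edgeR adjusted p = 0.13 and 0.0627). Of 10 tested AMPA and NMDA receptor subunits none was called in K4, where Grin1 was at 0.25 (edgeR adjusted p = 0.0512). In Ketamine 2 of the 10 were called, where 16.7% of all genes were. Grin1, the obligatory NMDA subunit, was higher there (0.23, edgeR adjusted p = 0.0385) and Grin2d, an NMDA subunit of interneurons, lower (−0.67, edgeR adjusted p = 0.0137). No gene of these lists was called between K4 and Ketamine, where Adarb1, an editing enzyme, was at 0.09 (edgeR adjusted p = 0.755) and Grin3a, an NMDA subunit, at 0.46 (edgeR adjusted p = 0.406).

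Counting could mix some reads. In RefSeq the Grik2 gene spans a pseudogene locus, LOC100910099, that held 111 to 247 counts per library (11.9% of the Grik2 total) and was lower in Ketamine (−0.57, edgeR adjusted p = 0.0211), with −0.41 in K4 (edgeR adjusted p = 0.12). The Grik1 gene spans LOC102549158, with 14 to 32 counts per library (4.6% of the Grik1 total) and log2 fold changes of 1.00 in K4 and 0.63 in Ketamine, not called. The strand setting of the counting is not given in the sources used here, so reads of such overlapping loci cannot be told apart from those of the receptor genes.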

How the data were processed

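Total RNA of the medial prefrontal cortex was made into stranded poly(A) libraries, per the labels' protocols. The submitters' processing notes name bcl2fastq 2.20.0, Trimmomatic, HISAT2 2.1.0, StringTie 2.1.3b and build rn6, with no role or order. Per the file headers, the deposited values are raw gene counts for all libraries in a single table, and gene FPKM and TPM in a file for each library. The counting tool is not given in the sources used here.

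The counts went into edgeR 4.0.16 under R 4.3.3: filterByExpr by group (minimum count 10, minimum total 15), TMM, and a robust quasi-likelihood fit of all 9 libraries with Benjamini-Hochberg adjustment over 18047 genes. Intervals cover 95%. Alternatives used DESeq2 1.42.0, limma 3.58.1 on log2(TPM + 1), other scalings, no filter, a replicate block, only the libraries compared, each library left out, and a length offset. For the offset, each gene's log2 CPM was taken as its deviation from the gene's mean over libraries. The offset is each library's smooth trend (span 0.3) of these deviations over the length implied by counts and FPKM, centred across libraries. TPM gives levels between genes, and tests on it serve only as alternatives.

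Every member is named in each comparison, with called genes of the partner lists, or that with the smallest p (a further partner list is not reported here), and the 3 genes most correlated with each called member among those whose log2 CPM averaged 0 or more. Members and lists were chosen with earlier results of these data known. The Grik3 to Grik2 ratio was added after its values were seen.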

Additional observations from a re-analysis of the deposited data

How the results depend on the processing

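The 4 called values kept their negative sign under the 10 other settings and in 9 fits with 1 library left out at a time. K4 against Control had 1 called member as reported and none in a fit on the 6 libraries compared, with the length offset, or in limma on TPM with a pseudocount of 1 or 0.1 or no filter. Leaving out a library gave 0 to 1 called members there, 0 to 4 in Ketamine against Control and 0 to 1 in K4 against Ketamine. Ketamine against Control had 3 called members, 1 on the 6 libraries compared, 4 with DESeq2 and 0 in each limma fit on TPM. It had 2 with the length offset (Grik1 and Neto2) and 2 with no filter on low counts (Grik1 and Grik2). K4 against Ketamine had 0, and 1 with DESeq2 or on the 6 libraries compared.

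Over all genes, K4 against Control had 1095 calls, but 1890 with DESeq2, 452 on the 6 libraries compared, 436 with the length offset, 1 in limma on unfiltered TPM, and 174 to 1548 when a library was left out (174 without Control replicate 1, 228 to 346 without a K4 replicate, 721 and 698 without Ketamine replicate 2 and 3). Ketamine against Control had 3013 calls, but 1380 with the length offset, 1840, 1837 and 537 in limma on TPM with a pseudocount of 1, of 0.1 and without a filter, and 1177 to 3191 when a library was left out (1177 without Ketamine replicate 2, 1556 without Ketamine replicate 3, 1811 without Control replicate 1). K4 against Ketamine had 0 calls, but 6 with no filter, 70 with DESeq2, 27 on the 6 libraries compared, 1 with the replicate block, 2, 2 and 1 in limma on TPM in the same order, and 0 to 27 when a library was left out (27 without Ketamine replicate 1, 12 without Control replicate 2). The causes were not tested.

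On the TPM scale the median log2 fold change of all genes moved to 0.16 in K4 and 0.12 in Ketamine against Control. Relative to it Grik1, Grik2 and Grik3 were at −0.10, −0.31 and 0.23 in K4 and −0.27, −0.26 and −0.44 in Ketamine. Grik4, Grik5, Grid1, Neto1 and Neto2 were at 0.05, −0.06, 0.07, 0.002 and −0.19 in K4. In Ketamine they were at 0.05, −0.13, −0.10, −0.10 and −0.25. Signs turned for 22 of 456 recomputed member values, none of them called. In limma on TPM (pseudocount 1, then 0.1, and 1 without filter) K4 against Control had 0.0568, 0.0634 and 0.0568 for Grik1, 0.1, 0.101 and 0.1 for Grik5, and 0.158, 0.162 and 0.158 for Neto1. Likewise Ketamine against Control had 0.0203, 0.0216 and 0.0203 for Grid1 and 0.016, 0.0167 and 0.016 for Neto1. Neto1 in K4 against Control was 0.0054 with upper quartile scaling, 0.0191 with the length offset, and ran from −0.0675 to 0.0615 when a library was left out (0.0615 without Control replicate 3, 0.0265 without K4 replicate 2). In K4 against Ketamine, Grik4 was −0.0166 with the length offset. When a library was left out, Grik2 there ran from −0.104 to 0.0214 (without Ketamine replicate 1) and Neto2 from −0.0217 (without K4 replicate 2) to 0.13.

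No label says that replicate numbers pair libraries, and the correlations of same-numbered libraries' deviations from group means ran from −0.01 to 0.09. The own number was the best match of the 3 replicate numbers in 7 of 9 pairs. Whether the numbers pair libraries was not tested. The replicate block gave 1168, 3191 and 1 calls in the 3 comparisons, and 1, 3 and 0 called members, and changed no call of a member.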
